A study of Phalaenopsis amabilis with 15 samples.

Results

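Leaves of the moth orchid Phalaenopsis amabilis grown under a short photoperiod (SD) were compared with leaves grown under a long photoperiod (LD) over 2 sampling ages at once. The comparison used 12 of the 15 RNA sequencing libraries of the series: the 6 SD libraries and the 6 LD libraries taken after 20 or 40 days, with the 3 control libraries of day 0 left out. The SD plants had 8 h of light and 16 h of dark per day, and the LD plants had 16 h of light and 8 h of dark. Day and night temperatures were 25 °C and 18 °C for both photoperiods. Before the treatments the plants had stood at 28 °C and 25 °C with 12 h of light. Each photoperiod has 3 libraries per age, and each library pooled uppermost young leaves of 3 plants, so differences between single plants are not visible. One additive model, with age as a covariate, gave each gene a single SD minus LD difference shared by both ages. The question behind it, as the title of the series puts it, is how photoperiod relates to floral induction.

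Plants read day length by setting light, sensed by phytochromes and cryptochromes, against an internal circadian clock. In Arabidopsis, clock output reaches CONSTANS and its relatives, and these act on FT, the mobile protein that moves from leaf to shoot tip and starts flowering. The same clock and light signals also set the genes of the photosynthetic antenna, of photoprotection, of starch turnover and, in plants with crassulacean acid metabolism (CAM) such as Phalaenopsis, of the daily rhythm of carbon fixation. Cool temperatures are known to bring Phalaenopsis to flower, and the cooler nights used here were common to SD and LD.

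The 12 libraries held between 11246777 and 14637388 counts each in 21144 genes, of which 16553 passed the expression filter of edgeR and were tested. On a principal component analysis of the 12 libraries, the axis with 61.5% of the variance set 40 days apart from 20 days. Some libraries stood apart from their groups. SD_40d replicate 1 lay at 18.6 on that axis, while SD_40d replicates 2 and 3 lay at 81.0 and 91.7. LD_20d replicate 1 lay at -7.11, against -62.1 and -32.5 for replicates 2 and 3. LD_40d replicate 3 lay at 20.5, against 60.6 and 52.7 for replicates 1 and 2. Results that rest on SD_40d replicate 1 are given with and without it, and calls are also given with each library left out. Levels of single genes are given in CPM, counts scaled to library size by TMM, while the list sums in this paragraph use library totals without TMM. The light-harvesting genes that mark leaf mesophyll summed to 18342 to 23349 CPM in SD and 9235 to 13947 CPM in LD. In the same way, 15 floral organ MADS genes summed to 46.6 to 57.6 CPM in SD and 48.0 to 68.6 CPM in LD. The 65 genes of the meristem list, matched by words in their descriptions, had 16 at 0 in all libraries. They summed to 468 to 499 CPM in SD and 538 to 592 CPM in LD at 20 days. At 40 days the sums were 629 to 670.5 CPM in SD and 702 to 813 CPM in LD. Many of these genes encode LOB domain proteins, and LBD37 alone had 945 to 4968 counts per library. The WUSCHEL-like locus WUS had 0 to 1 counts per library, so the sum does not measure meristem tissue. The part of the differences between these SD and LD sums in other results was not tested. In bulk leaf RNA, fewer cells of a type and less RNA per cell cannot be told apart. The hour of harvest is not given in the sources used here, so for any transcript that cycles over the day a different level and a different daily timing cannot be told apart.

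Under SD, 145 genes rose and 355 fell relative to LD when both ages were fitted together (edgeR quasi-likelihood test, Benjamini-Hochberg adjusted p under 0.05 over 16553 genes). These 500 calls are 3.02% of the genes tested, with 0.876% higher and 2.14% lower, and 3034 genes had an unadjusted p under 0.05. Most differences were modest: the median size was 0.65 on the log2 scale, a 1.56-fold difference, and 118 calls (30 higher, 88 lower) had a size of at least 1. Steep falls included those of PPCK1, a kinase of the CAM pathway, the clock-related factor RVE7 and the CONSTANS-like gene COL9. Steep rises included those of BT1, the transcription factors GATA7, BHLH87 and PIL13, and genes of chlorophyll-binding antenna proteins. The labels call the libraries biological replicates of 3 plants each, and the p-values measure the spread between these pooled libraries.

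The shared estimate called many genes that neither age called alone. Single ages were tested as contrasts in a model with a mean per group on the same 12 libraries. There 70 genes (0.423%) were called at 20 days and 16 (0.0967%) at 40 days. Of the 500 calls over both ages, 438 (2.65% of all genes) were called at neither age. Of the other calls, 13 were called at both ages, 47 at 20 days alone and 2 at 40 days alone. In 401 of the 500 calls (80.2%) the SD and LD libraries did not overlap at either age, while 4.62% of all genes tested showed this (1.85% with SD higher and 2.76% with SD lower). The calls were selected by a test on these same 12 libraries, which favours such separation, so the higher share is no separate support. The 500 differences had the same sign at 20 and at 40 days, which the additive model itself favours. The fall was larger at 20 days in 215 of the 355 genes that fell, and the rise was larger at 20 days in 56 of the 145 genes that rose. Age was the larger source of variation overall: 7419 genes (44.8%) were called between 40 and 20 days, and 288 of the 500 photoperiod calls (57.6%) were among them. Within the 500 calls, the photoperiod difference was larger than the age difference in 384.

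**Figure D1:**
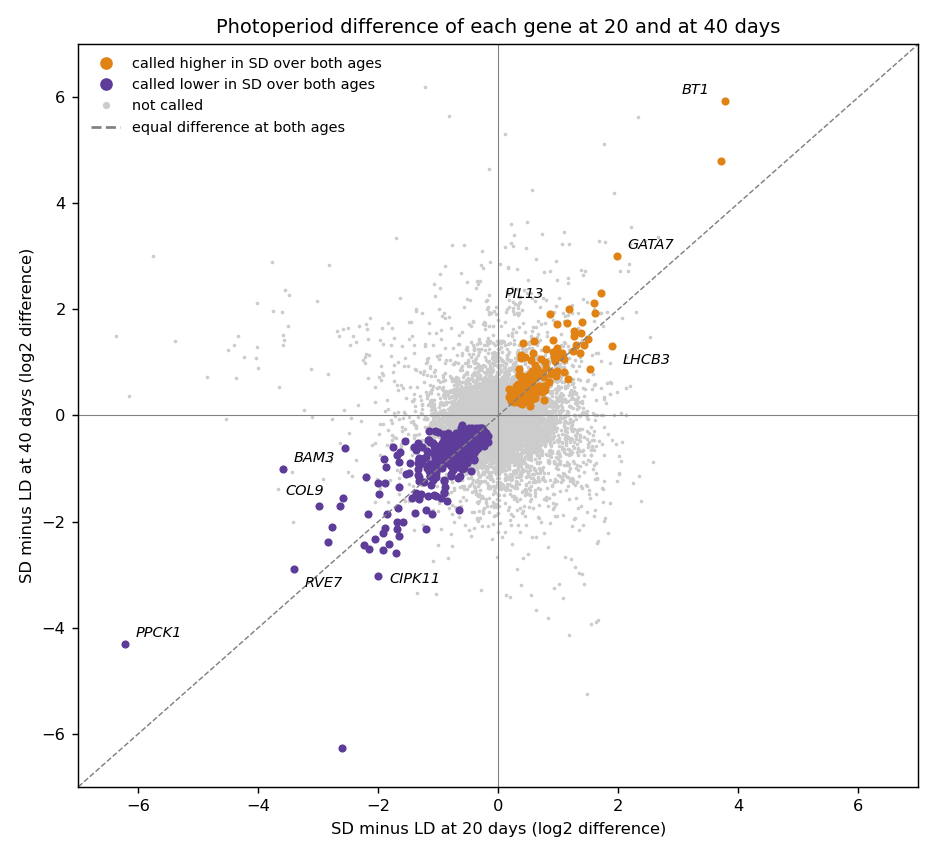
SD minus LD differences at 20 days (x axis) and at 40 days (y axis), both on the log2 scale, for the genes tested, with the 500 genes called over both ages in colour. The calls lie in the quadrants where both ages have the same sign, on either side of the dashed line of equal difference; 1 called gene, GA2OX8, lies outside the axes because it had no count in SD at 20 days.

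PPCK1 (LOC110038259, bases 8439 to 9699 of scaffold NW_018250288.1) encodes a kinase that switches on PEP carboxylase by phosphorylation. It had the steepest fall among the calls with a mean of at least 2 on the log2 CPM scale, no overlap of SD and LD at either age and a described protein, the set from which the 10 steepest falls and the 10 steepest rises were taken. At 20 days it had 12.6, 7.49 and 6.73 CPM in SD, against 799, 424 and 790.2 CPM in LD. At 40 days it had 117, 21.02 and 15.8 CPM in SD, against 1298, 1319 and 431 CPM in LD. No SD library reached an LD library at either age, although SD_40d replicate 1 lay well above SD_40d replicates 2 and 3. The difference over both ages was -5.23 ± 0.65 (adjusted p = 0.00256), and without SD_40d replicate 1 it was -6.03 (adjusted p = 1.05e-04).

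RVE7 (LOC110021130, bases 9317 to 12770 of scaffold NW_018164564.1) belongs to the Myb-type family of the clock gene LHY, and had 23.7, 21.6 and 14.96 CPM in SD and 263, 186 and 192 CPM in LD at 20 days, and 62.9, 42.03 and 22.2 CPM in SD and 386, 394 and 170.3 CPM in LD at 40 days. The LD libraries were several times the SD libraries at both ages, and the difference was -3.15 ± 0.29 (adjusted p = 6.79e-04). The CONSTANS-like gene COL9 (LOC110027028, bases 690072 to 710632 of scaffold NW_018164852.1), whose Arabidopsis namesake delays flowering, had 13.99, 11.3 and 11.7 CPM in SD and 90.6, 66.03 and 66.00 CPM in LD at 20 days, and 26.2, 36.4 and 31.8 CPM in SD and 112, 99.2 and 67.5 CPM in LD at 40 days. SD and LD libraries were apart at both ages, with the wider gap at 20 days, and the difference over both ages was -2.06 ± 0.21 (adjusted p = 7.61e-04). CYP93G1 (LOC110019181, scaffold NW_018164495.1, 1196380 to 1199600), matched to a rice flavone synthase though the table also describes it as another monooxygenase, had 42.04, 55.2 and 53.6 CPM in SD and 185, 151 and 226 CPM in LD at 20 days, and 90.2, 44.1 and 44.1 CPM in SD and 294, 249 and 232 CPM in LD at 40 days. Its fall of 2.01 ± 0.19 on the log2 scale (adjusted p = 6.79e-04) was about equal at both ages (-1.90 at 20 days and -2.12 at 40 days).

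The other 6 of these 10 falls came from varied pathways. CYP85A1 (LOC110033615), which catalyses a late step of brassinosteroid synthesis, had 3.08 to 17.2 CPM (median 9.85) in the 6 SD libraries, against 24.1 to 62.3 CPM (median 36.96) in the 6 LD libraries. Every SD library lay below every LD library, and the difference was -2.16 ± 0.32 (adjusted p = 0.00694). CIPK11 (LOC110033924), a kinase that acts with calcium sensors, differed by -2.50 ± 0.45 (adjusted p = 0.0175), and KCS5 (LOC110026642), an enzyme that lengthens fatty acids for cuticular wax, by -2.34 ± 0.34 (adjusted p = 0.00569). PMI1 (LOC110018061), needed for chloroplast movement in Arabidopsis, differed by -2.13 ± 0.38, HL3 (LOC110032093), listed as a hydrolase, by -2.27 ± 0.33 and GEML8 (LOC110039027) by -2.19 ± 0.44, with adjusted p of 0.0167, 0.00569 and 0.0253. With 1 library left out at a time, PMI1 kept its call in 11 of 12 fits (highest adjusted p 0.0511, without LD_20d replicate 3) and GEML8 in 5, while PPCK1, RVE7, COL9, CYP93G1, CYP85A1, CIPK11, KCS5 and HL3 kept theirs in 12.

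The steepest rise was that of BT1 (LOC110022335, scaffold NW_018164628.1, 327251 to 330283), a gene of a BTB and TAZ domain protein, which had 49.2, 16.6 and 22.5 CPM in SD and 1.94, 1.11 and 3.45 CPM in LD at 20 days, and 7.14, 297 and 387 CPM in SD and 4.54, 4.09 and 2.79 CPM in LD at 40 days. All SD libraries lay above all LD libraries within each age, but the gap at 40 days was narrow for SD_40d replicate 1. The difference was 4.96 ± 0.85 (adjusted p = 0.0146), and it was 5.22 without SD_40d replicate 1 (adjusted p = 0.00182). A second BT1 locus (LOC110022349), whose start lies 18399 bases away, was not called, and reads of near copies may be shared between them.

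Genes of 3 transcription factors followed. GATA7 (LOC110027045, scaffold NW_018164854.1, 662050 to 663403), a zinc finger factor, had 8.60, 7.57 and 10.7 CPM in SD and 2.01, 3.60 and 1.20 CPM in LD at 20 days, and 5.06, 23.2 and 27.7 CPM in SD and 2.54, 2.87 and 1.603 CPM in LD at 40 days, a difference of 2.49 ± 0.42 (adjusted p = 0.0132). Here too SD_40d replicate 1 was the lowest SD library, and the groups did not overlap. BHLH87 (LOC110038867), a basic helix-loop-helix factor, had 10.49 to 22.3 CPM (median 12.9) in the 6 SD libraries, against 1.153 to 6.58 CPM (median 3.62) in the 6 LD libraries, and the difference was 2.0004 ± 0.38 (adjusted p = 0.0220), called in 8 of 12 fits with 1 library left out, with the highest adjusted p (0.0619) without SD_20d replicate 1. PIL13 (LOC110028745, scaffold NW_018164962.1, 681624 to 684621), a phytochrome-interacting factor of the type that promotes growth in the dark, had 361, 161 and 202 CPM in SD and 133, 92.2 and 95.4 CPM in LD at 20 days, and 611, 1462 and 1335 CPM in SD and 271, 274 and 307 CPM in LD at 40 days. It rose with age as well as with SD, and its photoperiod difference was 1.59 ± 0.27 (adjusted p = 0.0131).

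The rest of the 10 steepest rises were 3 antenna genes, described with their list, and 3 others. LOC110038457, whose best protein match is the ultraviolet-B receptor UVR8, had 13.9 to 52.1 CPM (median 21.8) in the 6 SD libraries, against 7.04 to 15.6 CPM (median 8.52) in the 6 LD libraries. It differed by 1.45 ± 0.27 (adjusted p = 0.0209) and was called in 8 of 12 fits, with the highest adjusted p (0.0575) without LD_20d replicate 3. WTR37 (LOC110036825), a WAT1-related membrane protein, differed by 1.38 ± 0.21 (adjusted p = 0.00879), with 16.2 to 40.5 CPM (median 19.8) in the 6 SD libraries, against 6.89 to 16.7 CPM (median 8.09) in the 6 LD libraries. RR10 (LOC110034179), named after a rice response regulator that is switched on by cytokinin, differed by 1.08 ± 0.16 (adjusted p = 0.00601), with 11.98 to 23.3 CPM (median 16.4) in the 6 SD libraries, against 4.53 to 11.2 CPM (median 8.32) in the 6 LD libraries. The SD and LD libraries of all 3 were apart within each age.

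**Figure D2:**
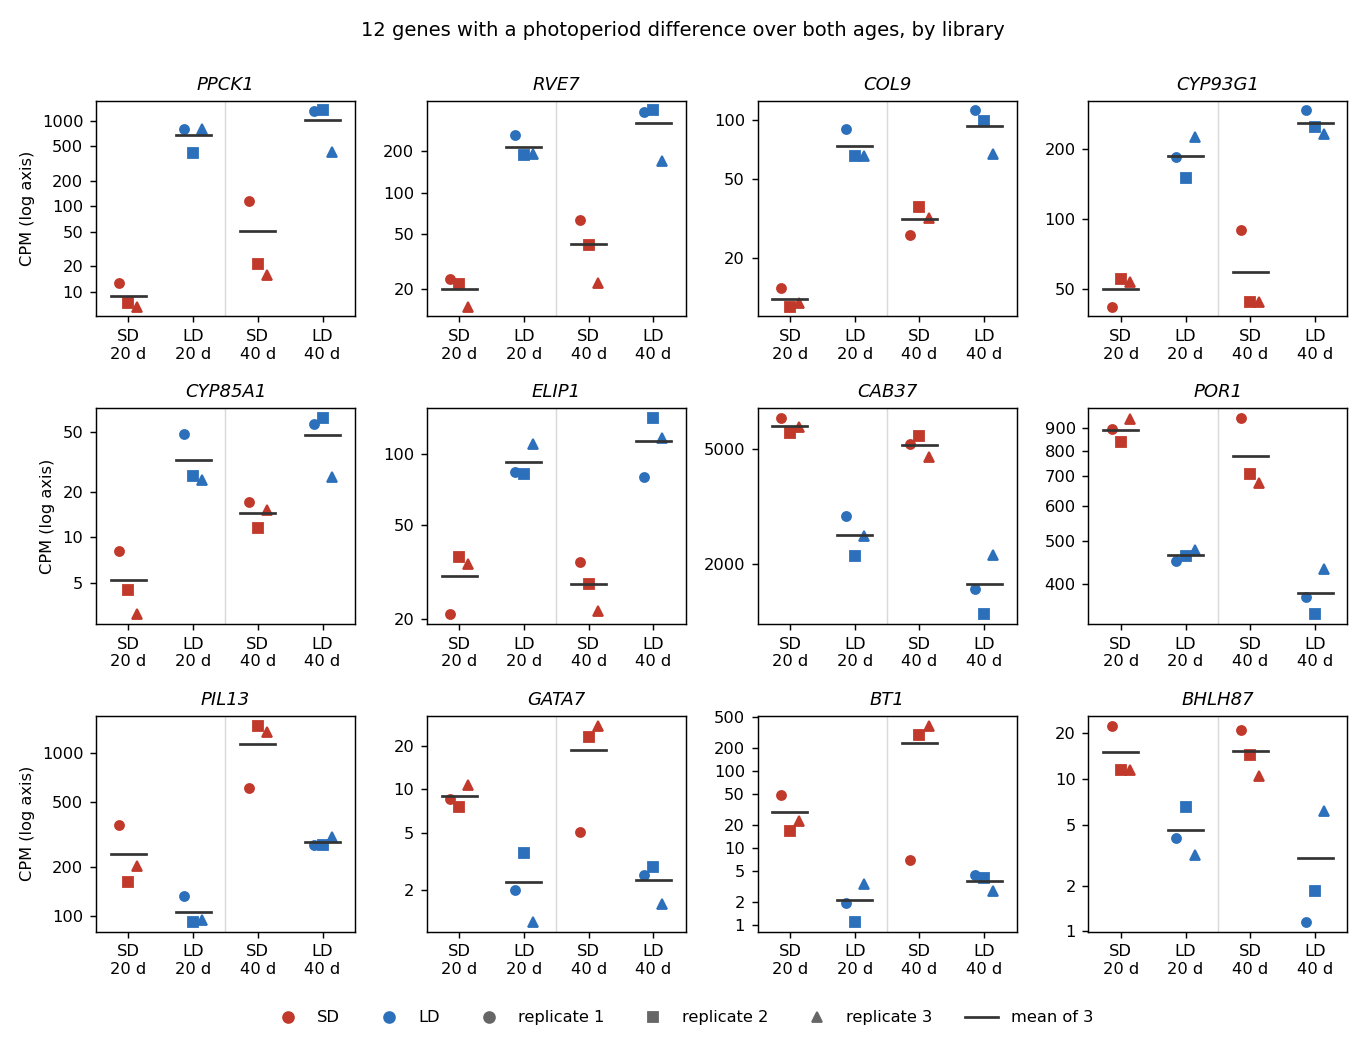
CPM (log axis) of 12 genes in each of the 12 libraries, with SD in red and LD in blue, replicates by symbol and the mean of 3 libraries as a bar. In each of these genes the SD libraries lie wholly below (PPCK1 to ELIP1) or wholly above (CAB37 to BHLH87) the LD libraries of the same age. SD 40 d replicate 1 is the SD library nearest to LD at 40 days in PPCK1, RVE7, CYP93G1, ELIP1, PIL13, GATA7 and BT1. It is not the nearest in COL9, CAB37 or POR1.

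Of 32 circadian clock genes tested, 1 rose and 5 fell under SD (18.8% called, against 3.02% of all genes), and 26 were not called. Their median difference was 0.01, against 0.00 (-0.00066) over all genes, so the middle of the list lay at that of all genes. The 5 that fell were RVE7, RVE1, COR27, PRR73 and ELF3-2, and the 1 that rose was an LHY locus. RVE1 (LOC110020906, scaffold NW_018164551.1, 66501 to 70183), a relative of RVE7 that in Arabidopsis links the clock to auxin, had 27.2, 26.5 and 27.8 CPM in SD and 115, 84.1 and 103 CPM in LD at 20 days, and 59.4, 63.2 and 56.1 CPM in SD and 181, 154 and 98.8 CPM in LD at 40 days, a difference of -1.58 ± 0.16 (adjusted p = 7.61e-04). PRR73 (LOC110039462), a pseudo-response regulator and clock repressor, differed by -0.73 ± 0.15, COR27 (LOC110028958), a cold-induced repressor of clock genes in Arabidopsis, by -0.65 ± 0.11, and ELF3-2 (LOC110022278), a scaffold of the evening complex, by -0.39 ± 0.07, with adjusted p of 0.0263, 0.0145 and 0.0209. COR27 and RVE1 kept their calls in 12 of 12 fits with 1 library left out, and PRR73 and ELF3-2 in 6.

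LHY, the morning component of the clock, has a pair of loci in the table, and their values differed in pattern. At LOC110023014 the levels were 157, 158 and 171 CPM in SD and 111, 134 and 139 CPM in LD at 20 days, and 155, 157 and 161 CPM in SD and 108, 118 and 110.2 CPM in LD at 40 days. This small and even difference of 0.41 ± 0.07 passed the test (adjusted p = 0.0133). At LOC110025280 the levels were 609, 344 and 419 CPM in SD and 492, 391 and 528 CPM in LD at 20 days, and 1175, 2399.5 and 2623 CPM in SD and 1055, 1152 and 999.6 CPM in LD at 40 days. The SD libraries there overlapped the LD libraries at 20 days and lay above them at 40 days, and the difference of 0.46 ± 0.25 was not called (adjusted p = 0.357). Other clock genes that were not called include GIGANTEA (GI), at -0.51 ± 0.31 (adjusted p = 0.413), and PRR95 at LOC110033028, at 1.47 ± 0.55 (adjusted p = 0.170); without SD_40d replicate 1, that PRR95 locus was called at 1.67 (adjusted p = 0.0468). With 1 library left out at a time, 1 to 3 clock genes were called higher and 3 to 5 lower.

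Of 41 flowering-time genes tested, 1 rose and 7 fell (19.5% called), and the median was -0.02. The 1 that rose is SOC1 with its counts as deposited, and it was not called with them exchanged, as described below. All 7 that fell are a CONSTANS-like gene, a CDF gene or FT. COL10 (LOC110038787, scaffold NW_018251799.1, 114690 to 132199) had 25.5, 27.1 and 25.05 CPM in SD and 60.3, 50.03 and 49.6 CPM in LD at 20 days, and 35.5, 31.9 and 23.3 CPM in SD and 69.1, 60.4 and 40.9 CPM in LD at 40 days, with no overlap at either age and a difference of -0.98 ± 0.14 (adjusted p = 0.00488). COL14 (LOC110023156) differed by -0.82 ± 0.15 and COL13 (LOC110024797) by -0.40 ± 0.08, with adjusted p of 0.0184 and 0.0284 and calls in 9 and 5 of 12 fits with 1 library left out, against 12 for COL10. Not every CONSTANS-like gene was lower in SD: COL5 at LOC110037752 had 164 to 288 CPM (median 228) in the 6 SD libraries, against 115 to 205 CPM (median 151) in the 6 LD libraries, and its difference of 0.56 ± 0.14 just missed the threshold (adjusted p = 0.0501), while without SD_40d replicate 1 it was called at 0.58 (adjusted p = 0.0476). In the fits without 1 library, 0 to 4 genes of the list were called higher and 5 to 7 lower, with 4 higher and 7 lower without SD_40d replicate 1.

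CDF genes encode Dof factors that repress CONSTANS in Arabidopsis and are themselves removed by the clock-controlled FKF1 and GI proteins. The CDF2 locus LOC110037410 had 14.1, 11.3 and 9.88 CPM in SD and 42.9, 33.7 and 36.9 CPM in LD at 20 days, and 42.3, 33.3 and 21.4 CPM in SD and 64.6, 52.2 and 45.2 CPM in LD at 40 days, and the locus LOC110019467 had 22.8, 15.1 and 14.9 CPM in SD and 70.4, 41.1 and 56.1 CPM in LD at 20 days, and 66.4, 104 and 67.2 CPM in SD and 170.3, 165 and 99.6 CPM in LD at 40 days. Both lay lower in SD at each age, with a small overlap at 40 days in LOC110019467, and both were called at -1.20 ± 0.21 and -1.26 ± 0.22 (adjusted p = 0.0160 and 0.0160). LOC110026496, which has more counts than the other CDF2 loci, was not called (-0.27 ± 0.24, adjusted p = 0.613), with differences of -0.92 at 20 days and 0.38 at 40 days.

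FT itself was scarce. The FT locus LOC110022369 (scaffold NW_018164630.1, 318722 to 335466) had 33 counts summed over the SD libraries and 112 over the LD libraries at 20 days, and 20 in SD and 85 in LD at 40 days. In CPM it had 0.801, 0.659 and 1.002 CPM in SD and 1.87, 3.46 and 2.70 CPM in LD at 20 days, and 0.744, 0.558 and 0.300 CPM in SD and 3.38, 1.57 and 1.603 CPM in LD at 40 days. Every SD library lay below every LD library, and the difference was -1.84 ± 0.31 (adjusted p = 0.0122), called in 12 of 12 fits with 1 library left out. FT fell below the level set for examples from this list and was chosen after its values were seen.

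SOC1 (LOC110020085, bases 122255 to 163966 of scaffold NW_018164532.1), an integrator of flowering signals, is the 1 flowering-time gene called higher, and that call depends on how the table is read. As deposited it had 72.6, 67.3 and 72.1 CPM in SD and 66.1, 43.03 and 54.2 CPM in LD at 20 days, and 73.5, 97.4 and 86.3 CPM in SD and 50.4, 31.4 and 35.1 CPM in LD at 40 days, a difference of 0.75 ± 0.17 (adjusted p = 0.0401). The FPKM values in the same table were set against those counts: for SOC1, and for no other of 21144 genes at a tolerance of 0.01 reads, counts and FPKM disagreed in the 6 libraries of SD_20d and LD_40d. In each of these 6 the FPKM did match the deposited count of its own library when scaled by a library total from the other of these groups. The SOC1 FPKM thus keep the group order of the deposited counts, while the totals used to scale them follow the exchanged order. The library totals behind the FPKM also equal the table totals only once the SOC1 counts are exchanged. With the counts of SD_20d and LD_40d exchanged, SOC1 had 47.8, 29.7 and 36.1 CPM in SD and 66.1, 43.0 and 54.2 CPM in LD at 20 days, and 73.5, 97.4 and 86.3 CPM in SD and 76.6, 71.1 and 70.2 CPM in LD at 40 days. The photoperiod difference was then -0.14 ± 0.17 (adjusted p = 0.722), with the groups overlapping at both ages. Both checks rest on library totals, and both fit the exchanged counts better than the deposited ones. How the mismatch arose is not stated in the sources used here, and no direction is drawn for SOC1. In the counts as deposited, the call also failed in 10 of 12 fits with 1 library left out.

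**Figure D3:**
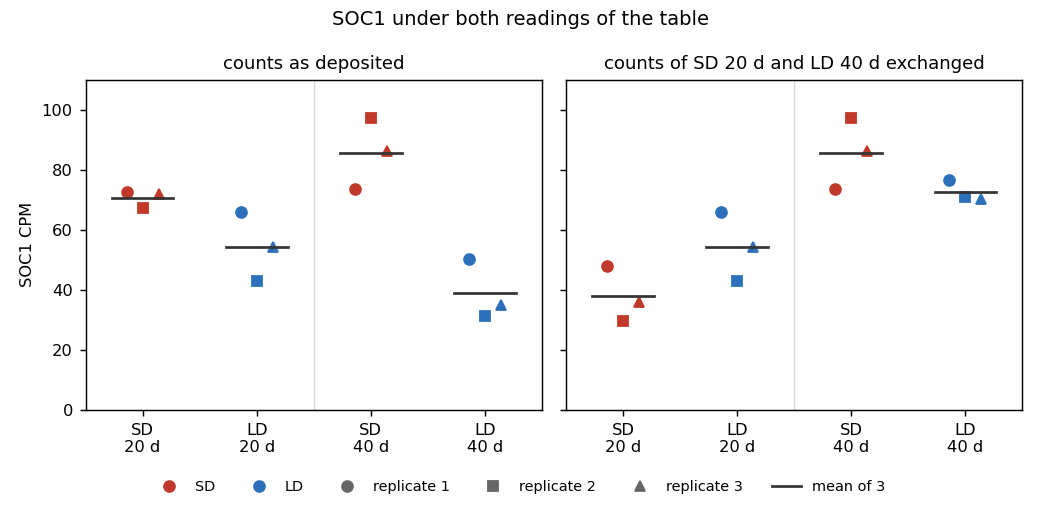
CPM of SOC1 in each library with the counts as deposited (left) and with those of SD_20d and LD_40d exchanged (right), SD in red and LD in blue. SD lies above LD at both ages on the left (0.75 ± 0.17 over both ages) and overlaps LD on the right (-0.14 ± 0.17).

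Of 30 light signalling genes, 2 rose and 2 fell (13.3% called, median -0.08), and 0 of 9 photoreceptor genes were called (median 0.01). HY5 (LOC110032590, scaffold NW_018165416.1, 27910 to 42736), the bZIP factor that promotes light-grown development, had 8.23, 8.97 and 9.80 CPM in SD and 19.6, 17.6 and 19.5 CPM in LD at 20 days, and 11.5, 13.5 and 13.6 CPM in SD and 18.3, 20.6 and 17.8 CPM in LD at 40 days. The groups were apart at both ages and the difference was -0.81 ± 0.11 (adjusted p = 0.00543). Its relative HYH (LOC110030608) had 0.215 to 8.91 CPM (median 3.11) in the 6 SD libraries, against 2.70 to 14.1 CPM (median 7.82) in the 6 LD libraries, and was not called (-1.66 ± 0.42, adjusted p = 0.0544). SPA3 (LOC110029638), a partner of COP1 in the breakdown of HY5, had 165 to 375 CPM (median 279.5) in the 6 SD libraries, against 344 to 650.4 CPM (median 415) in the 6 LD libraries and differed by -0.81 ± 0.13 (adjusted p = 0.0113). PIL15 (LOC110022360), a phytochrome-interacting factor like PIL13, had 40.8 to 52.6 CPM (median 44.3) in the 6 SD libraries, against 21.4 to 33.4 CPM (median 29.02) in the 6 LD libraries and differed by 0.66 ± 0.12 (adjusted p = 0.0175). The other PIL13 loci, LOC110029952 and LOC110018384, were not called (0.29 ± 0.17 and -0.04 ± 0.15, adjusted p = 0.407 and 0.921). For the 9 photoreceptor genes the differences ran from -0.34 (PHOT2) to 0.17 (PHYC), with adjusted p from 0.345 up. PHYB differed by 0.05 ± 0.05 and PHYA by -0.07 ± 0.09.

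**Figure D4:**
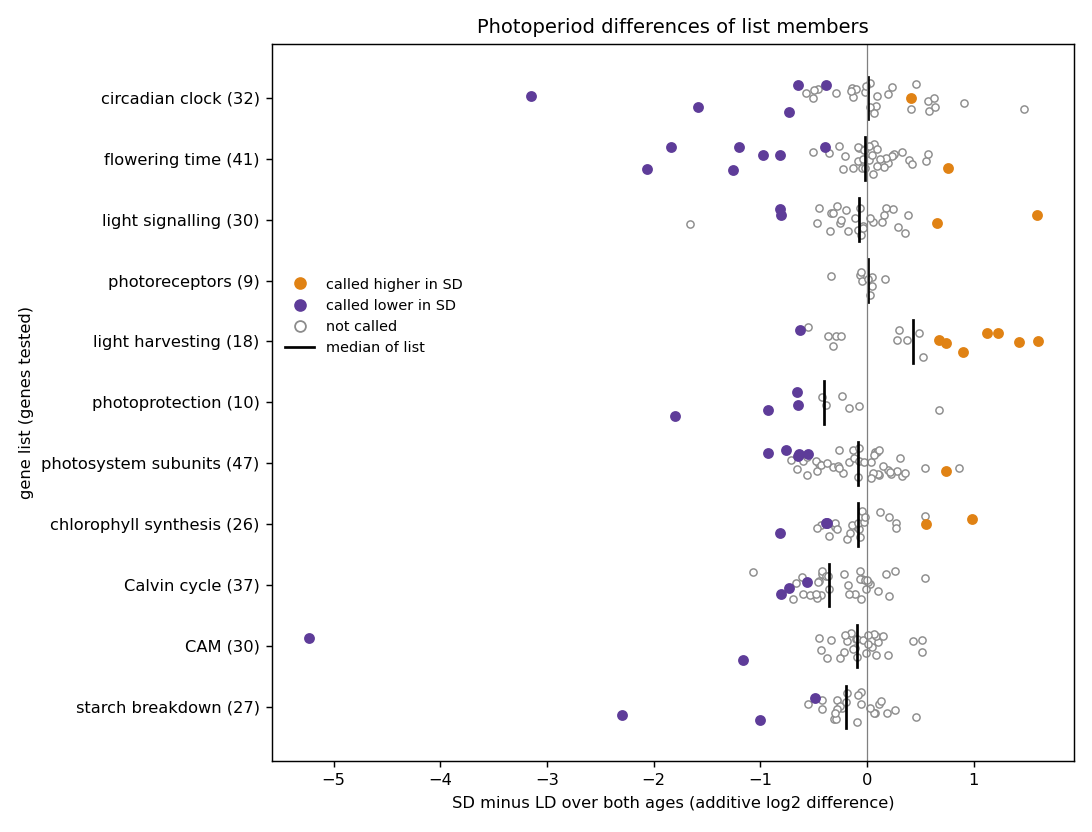
Additive SD minus LD difference (log2) of each tested member of 11 gene lists, with called genes in colour, other genes as open circles and the list median as a bar. Light-harvesting genes have the highest median (0.43), photoprotection (-0.41) and Calvin cycle (-0.36) the lowest, and in the clock and flowering-time lists a few called genes stand far below a median near 0.

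Most of the antenna genes that were called were higher under SD. Of 18 light-harvesting genes, 7 rose and 1 fell (44.4% called), and the list median was 0.43. CAB37 (LOC110031670, scaffold NW_018165280.1, 2681886 to 2683081), an antenna gene of photosystem II type, had 6400.3, 5682 and 5982 CPM in SD and 2931, 2145 and 2508 CPM in LD at 20 days, and 5225, 5531 and 4712 CPM in SD and 1641, 1345 and 2159 CPM in LD at 40 days. It was about 2.68-fold higher in SD over both ages, a difference of 1.42 ± 0.15 (adjusted p = 9.38e-04). CAB8 (LOC110023588, scaffold NW_018164666.1, 4270946 to 4272391) had 1186, 942 and 1097 CPM in SD and 496, 383 and 485 CPM in LD at 20 days, and 1233, 1780.2 and 1583 CPM in SD and 689.9, 559.9 and 722 CPM in LD at 40 days, and its difference of 1.23 ± 0.12 (adjusted p = 7.61e-04) was nearly equal at both ages (1.24 at 20 days and 1.22 at 40 days). LHCA4 (LOC110028982), of the photosystem I antenna, had 513 to 799.8 CPM (median 612) in the 6 SD libraries, against 213 to 367 CPM (median 289) in the 6 LD libraries, a difference of 1.12 ± 0.14 (adjusted p = 0.00292). The 3 genes were apart at both ages and kept their call in all 12 fits with 1 library left out.

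Another 4 antenna genes rose. LHCB3 (LOC110019911) had 352, 317 and 363 CPM in SD and 105, 79.96 and 93.05 CPM in LD at 20 days, and 289.7, 159 and 111 CPM in SD and 64.9, 44.1 and 117 CPM in LD at 40 days, a difference of 1.601 ± 0.27 (adjusted p = 0.0123). LD_40d replicate 3 lay within the SD range there. The minor antenna genes LHCB5 (LOC110021597), CAP10A (LOC110021645) and LHCB4.1 (LOC110031686), for CP26, CP24 and CP29, differed by 0.89 ± 0.16, 0.74 ± 0.14 and 0.67 ± 0.16, with adjusted p of 0.0169, 0.0181 and 0.0426 and calls in 12, 12 and 3 of 12 fits with 1 library left out. The 1 gene of this list that fell, OHP2 (LOC110025985, -0.63 ± 0.13, adjusted p = 0.0284), encodes a one-helix protein that helps to assemble photosystem II and is no antenna protein. The members that were not called and lay below 0 are likewise no main antenna genes, apart from LHCB7: OHP1 was at -0.56 ± 0.14 and 3 LIL3.1 loci were at -0.32 ± 0.11, -0.30 ± 0.13 and -0.24 ± 0.11. With 1 library left out, 6 to 7 members were called higher and 0 to 3 lower, and 6 and 2 without SD_40d replicate 1. Copies within the family are alike in sequence, so reads may be split unevenly among them.

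Photoprotection genes lay on the other side. Of 10 tested, 0 rose and 4 fell (40.0% called), with a median of -0.41. ELIP1 (LOC110024270, scaffold NW_018164693.1, 872214 to 873397), an early light-induced protein that binds chlorophyll under light stress, had 20.98, 36.8 and 34.1 CPM in SD and 84.1, 82.2 and 110.3 CPM in LD at 20 days, and 34.8, 28.3 and 21.6 CPM in SD and 80.1, 142 and 117 CPM in LD at 40 days. SD and LD did not overlap, and the difference was -1.80 ± 0.19 (adjusted p = 9.70e-04). PSBS (LOC110028411), which triggers heat dissipation when the thylakoid lumen turns acid, had 564, 444 and 438 CPM in SD and 1473, 813 and 1201 CPM in LD at 20 days, and 1143, 1192 and 1373 CPM in SD and 2107, 2008 and 1459 CPM in LD at 40 days. It differed by -0.93 ± 0.18 (adjusted p = 0.0240) and was called in 5 of 12 fits with 1 library left out. VDE1 (LOC110038543), which makes zeaxanthin, differed by -0.64 ± 0.12 and a SEP1 locus (LOC110036833), of the stress-enhanced relatives of the antenna, by -0.66 ± 0.12 (adjusted p = 0.0191 and 0.0209), with calls in 8 and 5 of 12 such fits. Of 3 zeaxanthin epoxidase (ZEP) loci 0 were called, with differences of 0.68, -0.17 and -0.07. With 1 library left out, 1 to 5 members of the list were called lower.

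Chlorophyll synthesis was mixed, with 2 of 26 genes higher and 3 lower and a median of -0.09. POR1 (LOC110033798, scaffold NW_018165736.1, 17606 to 21482), the enzyme that reduces protochlorophyllide in the light, had 896, 839 and 943 CPM in SD and 451, 463 and 478 CPM in LD at 20 days, and 950.0, 711 and 676 CPM in SD and 373, 341 and 431 CPM in LD at 40 days, a difference of 0.99 ± 0.10 (adjusted p = 7.61e-04). The rise was alike at each age (0.94 at 20 days and 1.03 at 40 days), with no overlap. CRD1 (LOC110028095), a subunit of the cyclase just before that step, rose by 0.55 ± 0.13 (adjusted p = 0.0436), but kept its call in 2 of 12 fits with 1 library left out. PPXII (LOC110024400), HEME1 (LOC110030747) and UPM1 (LOC110022862), of earlier steps or side branches of the tetrapyrrole pathway, fell by 0.38 ± 0.06, 0.39 ± 0.08 and 0.81 ± 0.17 on the log2 scale (adjusted p = 0.0133, 0.0241 and 0.0301). PPXII kept its call in 12, HEME1 in 4 and UPM1 in 5 of 12 such fits, and the list had 1 to 2 genes higher and 1 to 5 lower in them.

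Of 47 photosystem and ATP synthase subunit genes, 1 rose and 5 fell, with a median of -0.09. PSAN (LOC110029882), a photosystem I subunit, rose (0.74 ± 0.15, adjusted p = 0.0293). The ATP synthase delta chain gene ATPD (LOC110018373) fell evenly at both ages (-0.76 ± 0.13, adjusted p = 0.0158; -0.76 at 20 days and -0.77 at 40 days), and PSBS, PSB28, PPL1 and PPD6 were the other 4 that fell. Of 37 Calvin cycle genes, 0 rose and 3 fell, and the median was -0.36, with -0.55 at 20 days and -0.11 at 40 days. RBCS (LOC110030192), the small subunit of RuBisCO, had 805, 726 and 687 CPM in SD and 1617, 859.6 and 1689.7 CPM in LD at 20 days, and 1507, 967 and 909 CPM in SD and 2175, 1869 and 1492 CPM in LD at 40 days. The SD and LD libraries overlapped at 40 days, and the difference was -0.81 ± 0.19 (adjusted p = 0.0426), called in 3 of 12 fits with 1 library left out. PGLP1A (LOC110027215), the first enzyme of photorespiration, differed by -0.73 ± 0.14 and CP12-2 (LOC110032767), a regulator of the cycle, by -0.56 ± 0.12 (adjusted p = 0.0209 and 0.0283), called in 8 and 3 of 12 such fits. Across such fits, 0 to 6 Calvin cycle genes were called lower and 0 higher, and 1 to 10 photosystem and ATP synthase genes were called lower and 0 to 1 higher.

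In CAM leaves, PEP carboxylase fixes carbon at night and its kinase sets when it is active. Of 30 CAM genes, 0 rose and 2 fell, and these were the 2 PPCK1 loci. The second, LOC110023763, had 33.4, 56.1 and 49.3 CPM in SD and 79.6, 65.8 and 114 CPM in LD at 20 days, and 14.7, 7.07 and 9.29 CPM in SD and 30.98, 27.8 and 26.5 CPM in LD at 40 days. Its SD libraries lay below the LD libraries at both ages, and the difference was -1.16 ± 0.21 (adjusted p = 0.0160). It kept its call in 11 of 12 fits with 1 library left out and lost it without LD_20d replicate 3 (adjusted p = 0.0527). The genes of PEP carboxylase itself were not called: CAPP2 (LOC110022615) differed by -0.10 ± 0.09 (adjusted p = 0.573), and PPC2 (LOC110027447) by -0.22 ± 0.58 (adjusted p = 0.885). PPC2 had 399, 241 and 264 CPM in SD and 399.6, 574 and 1099 CPM in LD at 20 days, and 433, 2462 and 3497 CPM in SD and 1782, 1598 and 389.5 CPM in LD at 40 days, with wide spread within groups at both ages. The list median was -0.09, and with 1 library left out 0 to 1 CAM genes were called higher and 1 to 4 lower.

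Starch breakdown genes numbered 27, of which 0 rose and 3 fell, with a median of -0.20. AMY3 (LOC110033066, scaffold NW_018165521.1, 759581 to 856727), a plastid alpha-amylase, had 133, 114 and 111 CPM in SD and 364, 244 and 313 CPM in LD at 20 days, and 295, 362 and 374 CPM in SD and 617, 605 and 393 CPM in LD at 40 days, a difference of -1.01 ± 0.17 (adjusted p = 0.0133). BAM3 (LOC110020311, scaffold NW_018164536.1, 74371 to 77981), the beta-amylase that releases maltose from starch at night, had 112, 46.8 and 49.6 CPM in SD and 806, 587 and 1122 CPM in LD at 20 days, and 464, 979.7 and 746 CPM in SD and 1731, 1818 and 858 CPM in LD at 40 days. The difference over both ages was -2.29 ± 0.52 (adjusted p = 0.0397), but it was unequal at -3.59 at 20 days and -1.01 at 40 days, and the groups overlapped at 40 days. AMY1.7 (LOC110036786) differed by -0.48 ± 0.11 (adjusted p = 0.0397). BAM3 kept its call in 4 of 12 fits with 1 library left out (highest adjusted p 0.1003, without SD_20d replicate 1), AMY1.7 in 3 and AMY3 in 12, and 1 to 7 genes of the list were called lower and 0 to 1 higher in these fits.

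Among 110 genes of sugar and starch metabolism, 3 rose and 7 fell with a median of -0.03, and the 3 that rose are loci matched to RFS6, a galactosyltransferase of the raffinose family of sugars. The first, LOC110039017, scaffold NW_018252669.1, 327 to 2309, had 47.5, 42.5 and 52.1 CPM in SD and 23.2, 25.1 and 26.4 CPM in LD at 20 days, and 44.7, 47.5 and 53.6 CPM in SD and 25.1, 22.4 and 20.5 CPM in LD at 40 days. Levels stayed in a narrow range within each photoperiod, and the difference of 1.01 ± 0.08 had the smallest adjusted p among the genes of these lists (4.01e-04). The others, LOC110024075 and LOC110035212, differed by 0.79 ± 0.15 and 0.78 ± 0.16 (adjusted p = 0.0209 and 0.0284). NIN1 (LOC110037681), a neutral invertase that splits sucrose, had 5.24 to 8.71 CPM (median 5.62) in the 6 SD libraries, against 12.7 to 46.7 CPM (median 17.8) in the 6 LD libraries and differed by -1.67 ± 0.30 (adjusted p = 0.0160). SPP2 (LOC110028814), the last enzyme of sucrose synthesis, and PFK3 (LOC110029954), of glycolysis, fell by 0.50 ± 0.09 and 0.75 ± 0.15 on the log2 scale (adjusted p = 0.0181 and 0.0234). In the 12 fits without 1 library, the first RFS6 locus and NIN1 kept their calls in 12, the other RFS6 loci in 10 and 4, SPP2 in 10 and PFK3 in 7. The list then had 1 to 4 genes higher and 2 to 12 lower.

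Hormone genes gave few calls. Of 25 gibberellin genes, 0 rose and 2 fell. GA2OX8 (LOC110022722, scaffold NW_018164644.1, 4379390 to 4383313), an enzyme that inactivates gibberellins, had 0 counts in the 3 SD libraries at 20 days and 1.34, 0 and 0.0749 CPM in SD at 40 days, against 4.09, 3.88 and 10.3 CPM in LD at 20 days and 12.0, 19.2 and 8.99 CPM in LD at 40 days. Summed over both ages it had 19 counts in SD and 757 in LD. It was called lower in SD (adjusted p = 0.00448) and in 12 of 12 fits with 1 library left out. The fitted difference was -5.46 ± 0.74, and -8.47 without SD_40d replicate 1 (adjusted p = 1.27e-04), the SD library with the highest level. With SD libraries at 0, neither value is a bound on the fold. GID1C (LOC110030604), a gibberellin receptor, differed by -0.62 ± 0.12 (adjusted p = 0.0241) and was called in 6 of 12 fits.

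Of 42 abscisic acid genes, 1 rose and 3 fell. PP2C06 (LOC110022579), a phosphatase of the type that holds the signal off, had 129 to 299 CPM (median 196) in the 6 SD libraries, against 296 to 441 CPM (median 374) in the 6 LD libraries and differed by -0.93 ± 0.12 (adjusted p = 0.00269). The receptor PYL3 (LOC110029766) and the kinase SAPK7 (LOC110019988) differed by -0.67 ± 0.12 and -0.58 ± 0.14, and NCED1 (LOC110033126), matched to the rate-limiting enzyme of abscisic acid synthesis but also described as another carotenoid dioxygenase, by 0.78 ± 0.17, with adjusted p of 0.0191, 0.0436 and 0.0315. Of 25 cytokinin genes, RR10 rose, while RR26 (LOC110036004, -0.68 ± 0.14) and the cytokinin dehydrogenase CKX11 (LOC110023168, -0.68 ± 0.16) fell (adjusted p = 0.0284 and 0.0452). Of 73 auxin genes, 1 rose, the influx carrier LAX2 (LOC110022504, 0.89 ± 0.21, adjusted p = 0.0465), and 0 fell, while 0 rose and 2 fell without SD_40d replicate 1. Jasmonate genes had 0 of 29 higher and 2 lower (JAR4 and OPR4), and ethylene genes 1 of 66 higher and 2 lower (EIL1A and RAP2-2). In fits that leave out 1 library, PP2C06 and RR10 kept their calls in 12 of 12 fits and PYL3 in 11. NCED1, RR26 and JAR4 were called in 5, EIL1A and RAP2-2 in 4, SAPK7 and CKX11 in 3, and LAX2 and OPR4 in 2 of these fits, so the counts of these lists rest on single libraries. The medians of these 6 hormone lists ran from -0.23 (jasmonate) to -0.01 (cytokinin).

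The larger of the lists not yet described had between 0.606% and 6.25% of their genes called, against 3.02% of all genes. Of 217 cell cycle and histone genes, 2 rose and 0 fell (0.922%). Their median differed by age, at 0.29 at 20 days and -0.13 at 40 days. By library totals without TMM, they summed to 11685 to 14261 CPM in SD and 9048 to 12208 CPM in LD at 20 days. At 40 days the sums were 6656 to 8396 CPM in SD and 7563 to 8355 CPM in LD. Of 197 cell wall genes, 4 rose and 2 fell (3.05%), of 183 defence genes 2 rose and 3 fell (2.73%), and of 165 cytosolic ribosome genes 1 rose and 0 fell (0.606%). Of 139 heat shock and chaperone genes, 3 rose and 3 fell (4.32%). These counts moved with SD_40d replicate 1: without it, 7 cell wall genes rose and 10 fell, 2 defence genes rose and 9 fell, 3 ribosome genes rose and 0 fell, 17 heat shock genes rose and 3 fell, and 3 cell cycle genes rose and 1 fell. The 3 heat shock list genes that fell with all libraries are DnaJ-type chaperones, led by ATJ8 (LOC110019337), which had 41.4 to 107 CPM (median 81.4) in the 6 SD libraries, against 93.9 to 306 CPM (median 149) in the 6 LD libraries and differed by -1.24 ± 0.14 (adjusted p = 0.00159). Of 64 antioxidant genes, 0 rose and 4 fell (6.25%), among them CAT1 (LOC110023247), a catalase (-0.99 ± 0.19, adjusted p = 0.0226, called in 4 of 12 fits with 1 library left out). No member of the lists for SPL and AP2 factors (28), guard cells (16), vascular tissue (7), retroelements and viruses (8) or photoreceptors (9) was called with all libraries. In the floral organ list, MADS16 (LOC110024739), named after a rice lodicule and stamen gene, had 16.2 to 29.6 CPM (median 27.1) in the 6 SD libraries, against 28.8 to 47.9 CPM (median 38.4) in the 6 LD libraries and differed by -0.67 ± 0.12 (adjusted p = 0.0183), 1 call in 5 tested. The last lists each had 1 call. These were the LOB domain gene LBD39 of 18 genes of the meristem list (higher) and DREB3 of 31 cold and dehydration genes (lower). The others were KCS5 of 36 cuticle genes (lower) and CGT of 40 flavonoid genes (lower). The medians of the lists in this paragraph ran from -0.13 (cuticle) to 0.25 (guard cells).

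Other genes reached the threshold only in the difference shared by both ages. MTERF1 (LOC110028871, scaffold NW_018164975.1, 453033 to 455145), a factor that ends transcription in chloroplasts, had 84.1, 67.3 and 87.3 CPM in SD and 40.8, 32.6 and 42.1 CPM in LD at 20 days, and 88.2, 73.2 and 62.1 CPM in SD and 33.4, 26.1 and 44.2 CPM in LD at 40 days, a difference of 1.08 ± 0.14 (adjusted p = 0.00269; 1.05 at 20 days and 1.11 at 40 days). CNOT9 (LOC110021100), a subunit of the complex that shortens messenger RNA tails, had 15.97 to 18.9 CPM (median 17.2) in the 6 SD libraries, against 21.5 to 25.6 CPM (median 24.4) in the 6 LD libraries. This was a difference of only -0.48 ± 0.07 (adjusted p = 0.00448), yet all SD libraries lay below all LD libraries. FLZ1 (LOC110022773), PUB45 (LOC110019279) and ATL54 (LOC110030768), a zinc finger protein and a pair of ubiquitin ligases, differed by -1.08 ± 0.14, -1.07 ± 0.14 and -1.14 ± 0.16, with adjusted p of 0.00371, 0.00398 and 0.00473. CGT (LOC110031196), which attaches glucose to flavonoids, differed by -0.96 ± 0.13 (adjusted p = 0.00448). A second CGT locus 4600 bases away was not called. With LHCA4 and GA2OX8, these are the 8 described genes with the smallest adjusted p among the 438 that neither age alone called.

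The additive model assumes 1 difference at both ages, and departures from it were tested by the interaction of photoperiod and age. With edgeR 0 of 16553 genes were called (lowest adjusted p 0.434), while 1789 (10.8%) had an unadjusted p under 0.05 and DESeq2 called 28. Among the 500 photoperiod calls, 35 had an unadjusted interaction p under 0.05. The 6 described calls with the smallest interaction p were all genes that fell more at 20 days. ZAR1 (LOC110038138), a receptor-like kinase, had 16.4, 15.8 and 17.4 CPM in SD and 39.2, 32.7 and 31.6 CPM in LD at 20 days, and 27.98, 29.3 and 29.4 CPM in SD and 32.4, 36.8 and 37.6 CPM in LD at 40 days; its differences were -1.06 at 20 days and -0.30 at 40 days, an interaction of 0.76 ± 0.15 (unadjusted p = 4.37e-04). BAM3 had an interaction of 2.58 ± 0.60 (unadjusted p = 0.00116), COL9 of 1.02 ± 0.29 (unadjusted p = 0.00437) and CDF2 at LOC110037410 of 0.95 ± 0.33 (unadjusted p = 0.0151). LIP (LOC110029080), a lipase, and MGST3 (LOC110025820), a glutathione transferase, had 0.86 ± 0.26 and 0.69 ± 0.23 (unadjusted p = 0.00643 and 0.0112), and none of the 6 passed the adjusted threshold (adjusted p = 0.434). This 0 rests on SD_40d replicate 1: without it 988 genes were called for the interaction.

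The number of calls over both ages moved with single libraries. Leaving out 1 library gave between 144 calls (without LD_20d replicate 3) and 796 calls (without LD_40d replicate 3). Without SD_40d replicate 1 there were 768 calls, 241 higher and 527 lower, which included 451 of the 500. Without LD_20d replicate 2 there were 613. Each of the other 8 libraries, left out, gave 151 to 277 calls. Of the 500 genes, 120 were called in all 12 such fits (28 higher, 92 lower), and 0 of the 500 changed sign in any. Of 78 called genes chosen by rule for description, 41 were among the 120.

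**Figure D5:**
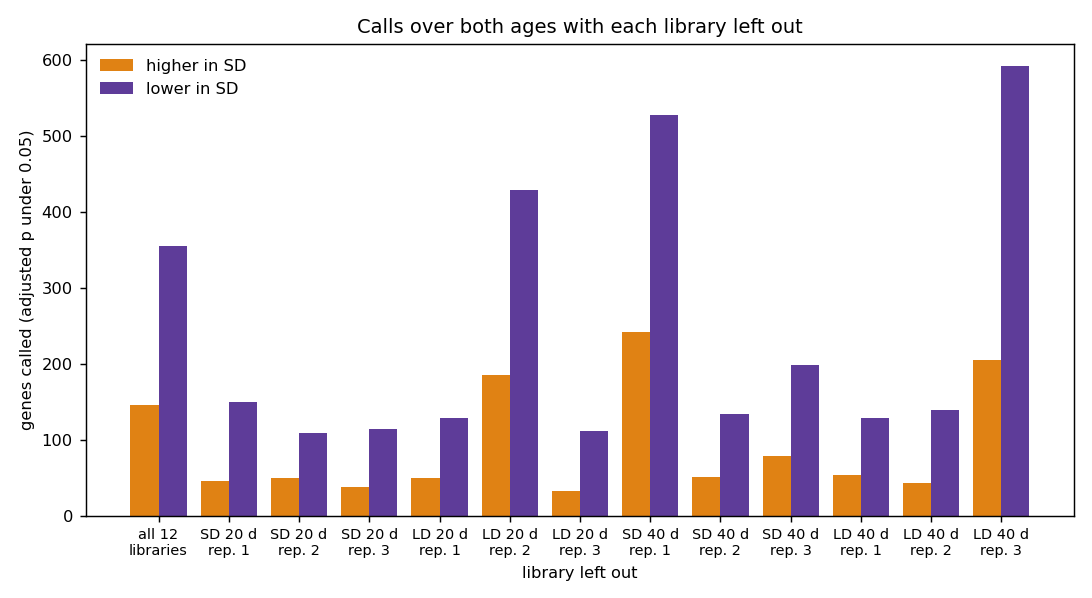
Number of genes called higher (orange) and lower (purple) in SD over both ages with all 12 libraries (145 and 355) and with each library left out. More genes are lower than higher in every fit shown, and the total runs from 144 to 796.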

How the data were processed

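RNA of pooled leaves was sequenced, and the analysis used the deposited table of raw counts per gene, whole numbers for 21144 genes as the authors gave them. FPKM values, which the authors deposited beside the counts, served only to check the counts and found the SOC1 discrepancy. Tools in the submitters' processing notes are HISAT2 2.0.5, HTSeq 0.9.1, cutadapt 1.15 and DESeq 1.30.0. Their settings, the genome build and the use of strand are not given in the sources used here, so genes that overlap on opposite strands may share counts. The table lists loci of Phalaenopsis equestris, while the labels give P. amabilis. Gene names are the best protein matches in the table and are not proof of function.

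Genes were kept by filterByExpr of edgeR 4.0.16 in R 4.3.3 (16553 of 21144) and scaled by TMM. The main test was the quasi-likelihood F test with photoperiod and age as terms, on 12 libraries with 9 residual degrees of freedom. A gene was called at a Benjamini-Hochberg adjusted p under 0.05 over all 16553 genes. Differences are SD minus LD on the log2 scale, and the SE is the size of the difference divided by the square root of F. A model with a mean per group, fitted to the same 12 libraries, gave the difference at each age and the interaction as contrasts. Alternatives were RLE scaling, DESeq2 1.42.0, limma-voom (limma 3.58.1), a robust prior, no filter, a replicate block, the mean of the 2 ages in a model of groups with 12 or 15 libraries, a size of at least 1, and each library left out; the code was tested on simulated data.

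Examples are the 10 steepest rises and 10 steepest falls as defined in the text, up to 2 calls per list by smallest adjusted p, genes of the flowering-time and clock lists whose mean log2 CPM was at least 1, the 8 described calls with the smallest adjusted p that neither age called, the 6 described calls with the smallest interaction p, and SOC1. Other members named were chosen to account for a list, after their values were seen. The members and lists were chosen with earlier results of these data known. Library totals of 11246777 to 14637388 counts limit the precision of scarce genes such as FT. Some genes are not reported here.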

Additional observations from a re-analysis of the deposited data

Results flagged for a closer look

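EHD3 (LOC110020925), a PHD finger protein that in rice promotes flowering through the Ghd7 and Ehd1 pathway, was picked out because every SD library lay above every LD library at 20 days and below every LD library at 40 days. It had 36.9, 40.0 and 41.0 CPM in SD and 30.6, 35.2 and 35.9 CPM in LD at 20 days, and 27.8, 26.3 and 24.4 CPM in SD and 35.5, 31.0 and 34.5 CPM in LD at 40 days. The difference was 0.21 at 20 days and -0.36 at 40 days, so that it changed by -0.577 ± 0.145 between ages (interaction, unadjusted p = 0.00215). Over all genes this was not called (adjusted p = 0.434), and the photoperiod difference over both ages was -0.07 ± 0.11 (adjusted p = 0.780). EHD3 is described here because opposite sides at the ages were searched for among the listed genes, so its unadjusted p is no independent support.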

How the results depend on the processing

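The 500 calls over both ages were 509 with RLE scaling, 478 with limma-voom, 489 with a robust prior, 434 with no filter, and 531 and 706 for the mean of both ages with 12 and 15 libraries. DESeq2 called 1214 genes, 440 higher and 774 lower, among them 497 of the 500, and a size of at least 1 left 118. With 1 library left out the count ran from 144 to 796. Calls that neither age made ran from 133 (without LD_20d replicate 3) to 663 (without LD_40d replicate 3), against 438 with all libraries. Interaction calls ran from 0 to 988, with 1 without LD_20d replicate 2 and 988 without SD_40d replicate 1, and DESeq2 gave 28 against 0. The SOC1 difference of 0.75 (adjusted p = 0.0401) was 0.665 to 0.866 with 1 library left out (adjusted p 0.0304 to 0.0786), and -0.14 with the counts exchanged. With the replicate number as a block, 433 genes were called, 362 of them among the 500, calls at neither age numbered 377, the interaction gave 0, and SOC1 was at 0.78 (adjusted p = 0.0537). The block rests on the number alone, and of 18 pairs of same-numbered libraries 4 had deviations correlated over 0.1 (-0.26 to 0.377). Same-numbered SD and LD libraries were at 0.377, 0.260 and 0.077 at 20 days and at -0.209, 0.198 and -0.260 at 40 days. Whether the numbers pair the samples cannot be told from these values, and the main test did not use them as pairs. For genes described singly, 1269 of 1539 repeats of called genes kept the call and 270 lost it, with 0 changes of sign. Of 1080 repeats of genes not called, 16 gained a call and 41 (14 genes) changed sign, at sizes of up to 0.30. A list's count moved by over 1.5 times in 210 of 429 repeats, which were added after the data were seen. At these depths, a scarce gene such as FT rests on 53 counts in SD and 197 in LD.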

Other observations

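Genes outside the lists, chosen after their values were seen from calls made in all 12 fits with 1 library left out, add further enzymes and regulators. HIPP39 (LOC110031444), a metal-binding protein, had the smallest adjusted p of all genes (2.89e-04), with 10.7 to 22.6 CPM (median 14.5) in the 6 SD libraries, against 27.8 to 55.3 CPM (median 35.1) in the 6 LD libraries and a difference of -1.27 ± 0.10. A pair of PCF2 loci, of the TCP family of growth regulators, fell by 1.47 ± 0.24 (LOC110019173) and 1.10 ± 0.19 (LOC110021174) on the log2 scale (adjusted p = 0.0114 and 0.0160). JMJ30 (LOC110029507), a histone demethylase tied to the clock in Arabidopsis, had 5.32, 6.09 and 5.58 CPM in SD and 10.1, 7.83 and 10.6 CPM in LD at 20 days, and 4.02, 5.49 and 4.34 CPM in SD and 9.69, 10.01 and 8.43 CPM in LD at 40 days, and differed by -0.88 ± 0.13 (adjusted p = 0.00690).

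PDX1 (LOC110017847), of vitamin B6 synthesis, had 129.7, 128 and 124 CPM in SD and 327, 239.5 and 281 CPM in LD at 20 days, and 183, 229 and 282 CPM in SD and 473, 473 and 369.9 CPM in LD at 40 days, with SD below LD at both ages and a difference of -1.04 ± 0.12 (adjusted p = 0.00159). HPT1 (LOC110027871), of tocopherol synthesis, CRTISO (LOC110030368), which isomerises carotenoid precursors, and SAT3 (LOC110031619), of cysteine synthesis, had differences of -0.87 ± 0.13, -0.99 ± 0.16 and -1.28 ± 0.18 (adjusted p = 0.00690, 0.0114 and 0.00569). DFA (LOC110022333), a mannose-binding lectin, had 890.1, 574 and 556 CPM in SD and 2487, 2704 and 4115 CPM in LD at 20 days, and 1714, 933 and 855 CPM in SD and 2440.3, 3050.4 and 2387 CPM in LD at 40 days, and fell by 1.69 ± 0.27 on the log2 scale (adjusted p = 0.00954). Among the rises was NRG2 (LOC110020434), a regulator of nitrate signalling in Arabidopsis, with 21.1 to 50.95 CPM (median 42.8) in the 6 SD libraries, against 9.57 to 28.8 CPM (median 18.7) in the 6 LD libraries and a difference of 1.05 ± 0.15 (adjusted p = 0.00569).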
